A study of Mus musculus with 24 samples.

Results

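The 9 genes described here are transcripts that T cells raise, or set, in response to signals through the T cell receptor (TCR): the nuclear receptors Nr4a1, Nr4a2 and Nr4a3, the zinc-finger transcription factors Egr1, Egr2 and Egr3, the surface receptors Cd69 and Cd5, and the transcription factor Nfatc1. They were taken by name, as the rows of the expression table whose Ensembl identifier carries these symbols, and made up 9 of 17464 genes in the table. All 9 passed the filter on low values, which asked for 10 or more normalized reads in 4 or more libraries and left 16630 genes to be tested. The question addressed was whether resting, activated and KLRG1+ regulatory T (Treg) cells of young and old mice differ in these reporters of TCR signalling.

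Bulk RNA-seq had been made from spleens of wild-type (WT) C57BL/6JRccHsd mice aged 2 months (young) or 26 months (old), without any treatment named in the labels. From each of 4 young and 4 old mice, 3 Treg subsets were sorted by flow cytometry: resting Treg cells (rTreg, CD44-), activated Treg cells (aTreg, CD44+) and KLRG1+ Treg cells (kTreg), with the gates given here in part. This gave 24 libraries in 6 groups of 4. Every value is a normalized value, the reads of a gene divided by the size factor of its library. In bulk samples, fewer cells of a type and less RNA per cell cannot be told apart.

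Antigen binding to the TCR starts a calcium signal, which lets calcineurin send NFAT proteins to the nucleus, and a MAP kinase signal, which acts through serum response factor on the EGR genes. The NR4A receptors are immediate early genes whose transcription follows the strength of that signal, and in Treg cells they help to maintain Foxp3. CD5 is a brake on TCR signalling whose surface level is set by signal strength during selection in the thymus, and CD69 is an early activation receptor that holds lymphocytes in tissue by taking the exit receptor S1PR1 off the surface.

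The sorted libraries carried the transcripts of their gates. Foxp3, the defining Treg factor, ranged from 5079 to 19813 in old aTreg and from 20351 to 25465 in young aTreg libraries. It ranged from 13151 to 29388 in rTreg and from 24669 to 37793 in kTreg libraries. Klrg1 ranged from 16559 to 41561 in kTreg libraries and was no higher than 357 in the other libraries. Cd44 ranged from 1628 to 3756 in rTreg libraries, from 2932 to 4356 in young aTreg libraries and from 4896 to 6441 in old aTreg libraries, so that cells of the aTreg gate differed in Cd44 between the ages. The libraries held between 15045747 and 29521942 reads on listed genes. The young kTreg library of mouse 4 stood apart, with 4913 genes at 0 (419 to 2756 in the others) and a spread of all genes about its group median of 2.26 (log2, SD) against at most 1.39 elsewhere. The old aTreg library of mouse 2 had the lowest Foxp3, 5079. Sums of the 5 macrophage and monocyte markers, all 5 of which were detected, ranged from 10076 to 26208 in old rTreg, 565 to 8060 in young rTreg, 226 to 324 in old aTreg, 52 to 2816 in young aTreg, 1912 to 2805 in old kTreg and 0 to 19727 in young kTreg libraries.

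The 9 transcripts covered a wide range of abundance. Per kilobase of the canonical transcript (GENCODE M39 on GRCm39), the mean normalized value over 24 libraries was 3648 for Cd5, 3132 for Cd69, 1470 for Nfatc1, 1071 for Nr4a1, 649 for Egr1 and 464 for Egr2. Nr4a2 (37.2 per kilobase), Egr3 (25.4) and Nr4a3 (19.0) were far lower. On this scale Cd5 and Cd69 lay at percentiles 97.6 and 97.0 of the tested genes, and Nr4a3 at 24.2. Nr4a2 had the highest coefficient of variation between mice of the 9 members, 81.4% in old rTreg cells. Those of Nr4a3 and Egr3 reached 45.1% and 44.8%, beside 50.6% for the more abundant Egr2. Standard errors of the subset differences were 0.39 for Nr4a2, 0.28 to 0.30 for Nr4a3, Egr2 and Egr3, and at most 0.22 for the others. For Nr4a2, Nr4a3, Egr2 and Egr3 only large differences could thus be detected.

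The promoters of the NR4A genes are shown because the cAMP response element (CRE), bound by CREB, is a textbook route from TCR signals to these genes. Windows of 250 bases before to 50 after the start were found in the RefSeq table (GRCm38.p6) for 5 of the 9 members, Nr4a1, Nr4a2, Nr4a3, Egr2 and Cd5. Egr1, Egr3, Cd69 and Nfatc1 had no window here. Each NR4A window held 4 copies of the CRE core TGACG, counted on both strands, and none held the full CRE TGACGTCA, which contains the core. At least 1 core was present in 20.8% of all 32851 windows and at least 4 in 0.231%, a number chosen after the windows were seen. The stretches below matched GRCm39 once each, at chr15:101164477-101164656 (+) for Nr4a1, chr2:57014132-57014161 (-) for Nr4a2 and chr4:48045055-48045152 (+) for Nr4a3. They run 5′ to 3′. The Nr4a1 and Nr4a3 stretches stop at the base before the exon that starts inside the window, and the Nr4a1 stretch lies within the annotated gene, whose longer transcripts start upstream of it. For Nr4a2 exons cover most of the window, and 30 bases around a pair of sites are given. Capitals mark the cores on either strand.
Nr4a1: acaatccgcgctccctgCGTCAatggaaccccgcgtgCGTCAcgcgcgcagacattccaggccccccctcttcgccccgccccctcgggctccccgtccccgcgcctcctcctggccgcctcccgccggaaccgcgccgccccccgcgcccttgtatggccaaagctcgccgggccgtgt
Nr4a2: cgCGTCAcggagcccggccgggcTGACGgg
Nr4a3: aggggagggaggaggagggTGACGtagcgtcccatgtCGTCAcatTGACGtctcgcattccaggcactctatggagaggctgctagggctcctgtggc

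Of the other motifs searched, the EGR site (GCGTGGGCG or GCGGGGGCG, in 3.47% of all windows) occurred once in the Nr4a1 window and in no other member. The CArG box, the site of serum response factor, occurred in 4 of the 5 Egr2 windows, which overlap one another in part, and in 1.63% of all windows. The NR4A site AAAGGTCA (1.51% of windows) and the AP-1 site TGACTCA or TGAGTCA (5.20%) were in no member window, and the Cd5 window held none of the motifs. These matches are letters in a fixed window and say nothing of binding in these cells.

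**Figure D1:**
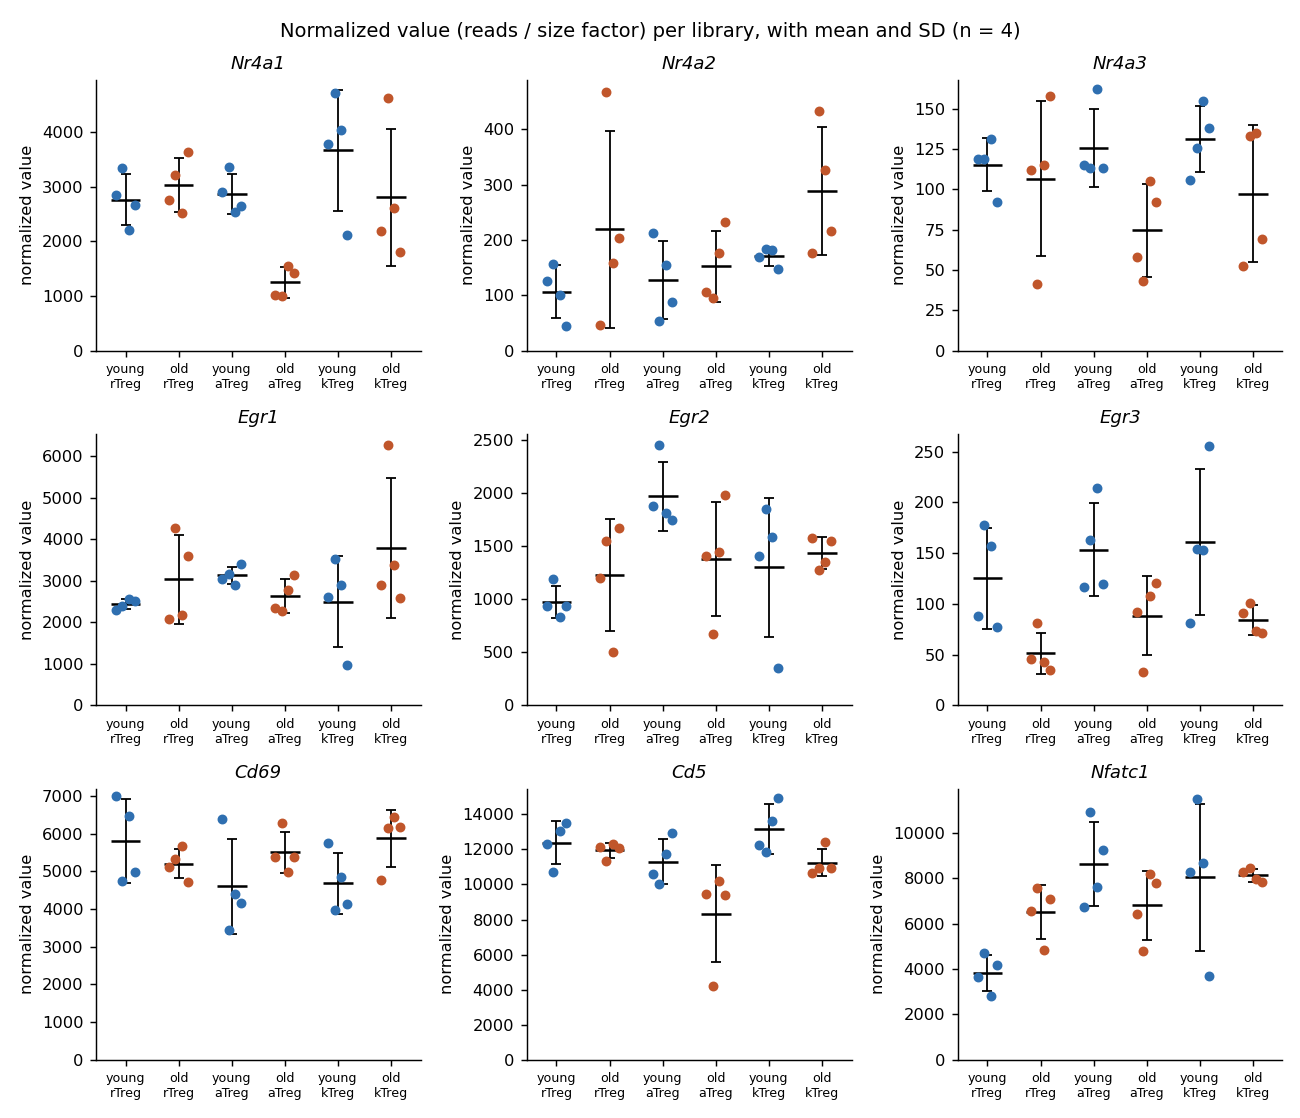
Normalized value (reads divided by the library's size factor, linear axis from 0) of each member in each library, by group, with blue points for young mice, brown for old mice, and lines for the mean and SD (n = 4). Nr4a1 in old aTreg cells lies at 1009 to 1557, below the 2538 to 3362 of young aTreg cells, and the young rTreg values of Nfatc1 (2832 to 4699) lie below those of old rTreg cells (4819 to 7558).

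Nr4a1 (ENSMUSG00000023034, chr15:101151980-101172681, + strand), the receptor also called Nur77, was called different in 3 of 9 comparisons, more than any other member. In young mice 1 to 4 its normalized values were 2850, 3331, 2212 and 2663 in rTreg cells. The values of the same mice were 2910, 3362, 2538 and 2641 in aTreg cells. In kTreg cells they were 3780, 4716, 4027 and 2116. Young rTreg and aTreg cells therefore overlapped almost fully, and 3 of 4 young kTreg libraries lay above both. In old mice 1 to 4 the rTreg values were 2762, 3211, 2525 and 3628. The old aTreg values were 1020, 1009, 1557 and 1425. The old kTreg values were 2186, 4616, 2605 and 1814. Every old aTreg library lay below every other library of the series, and in each of the 4 old mice aTreg cells had less Nr4a1 than both rTreg and kTreg cells. The group means ran from 3660 ± 1103 (SD, n = 4) in young kTreg through 3031 ± 489 in old rTreg, 2863 ± 368 in young aTreg, 2805 ± 1250 in old kTreg and 2764 ± 463 in young rTreg to 1253 ± 280 in old aTreg cells. Of neighbours in this order, only old aTreg was separated from the next group by more than the spread between libraries.

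Over both ages, Nr4a1 was 1.62-fold higher in kTreg than in aTreg cells (0.70 on the log2(value + 1) scale used for all tests, SE 0.18, limma adjusted p = 0.011), with 7 of 8 mice in that direction and mouse 4 of the young group the exception. Described by age, the difference was 0.30 in young and 1.10 in old mice (SE 0.25 each), and the test of that age difference gave 0.79 (interval 0.06 to 1.52, limma adjusted p = 0.48). Nr4a1 was the 1 member of 9 called, that is, past an adjusted p of 0.05 (Benjamini-Hochberg over all genes tested) and a fold change of 1.5, in this comparison, in which 4.13% of all genes tested were called higher and 3.26% lower. The call was lost without old mouse 2. Without its kTreg library the difference was 0.56 (limma adjusted p = 0.023), under the 1.5-fold threshold, and without the whole mouse 0.52 (adjusted p = 0.061, the highest of the 36 alternative settings, of which the lowest was 1.7e-04). That kTreg library also had the highest sum of 26 genes known to rise during cell isolation (336320, against 206507 to 289139 in the other old kTreg libraries). Macrophage and monocyte marker sums did not overlap between old kTreg (1912 to 2805) and old aTreg (226 to 324) libraries. CD8 T cell marker sums did not overlap either (311 to 487 and 171 to 268). Foxp3 ranged from 32111 to 37793 in old kTreg and from 5079 to 19813 in old aTreg libraries. Over both ages Foxp3 was called higher in kTreg than in aTreg cells (log2 0.88, SE 0.21, limma adjusted p = 0.0073). The part of these genes and markers in the result was not tested.

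Nr4a1 was also lower in aTreg than in rTreg cells (log2 -0.61, SE 0.18, limma adjusted p = 0.026), in 5 of 8 mice. Here 2.78% of genes tested were called lower and 5.23% higher. This difference lay just past the fold threshold. It was no longer called without the young rTreg library of mouse 2 (-0.57, adjusted p = 0.059), the old rTreg library of mouse 4 (-0.57, 0.056), the young aTreg library of mouse 3 (-0.59, 0.055), the old aTreg libraries of mouse 1 (-0.57, 0.059) or mouse 2 (-0.57, 0.053), old mouse 2 as a whole (-0.55, 0.033), or both the young kTreg library of mouse 4 and the old aTreg library of mouse 2 (-0.57, 0.015). Adjusted p over the alternatives ranged from 0.0025 to 0.059. Between kTreg and rTreg cells Nr4a1 differed by 0.08 (95% interval -0.28 to 0.45, adjusted p = 0.77), and the other members stood as described below against 9.37% of genes called higher and 6.09% lower.

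**Figure D2:**
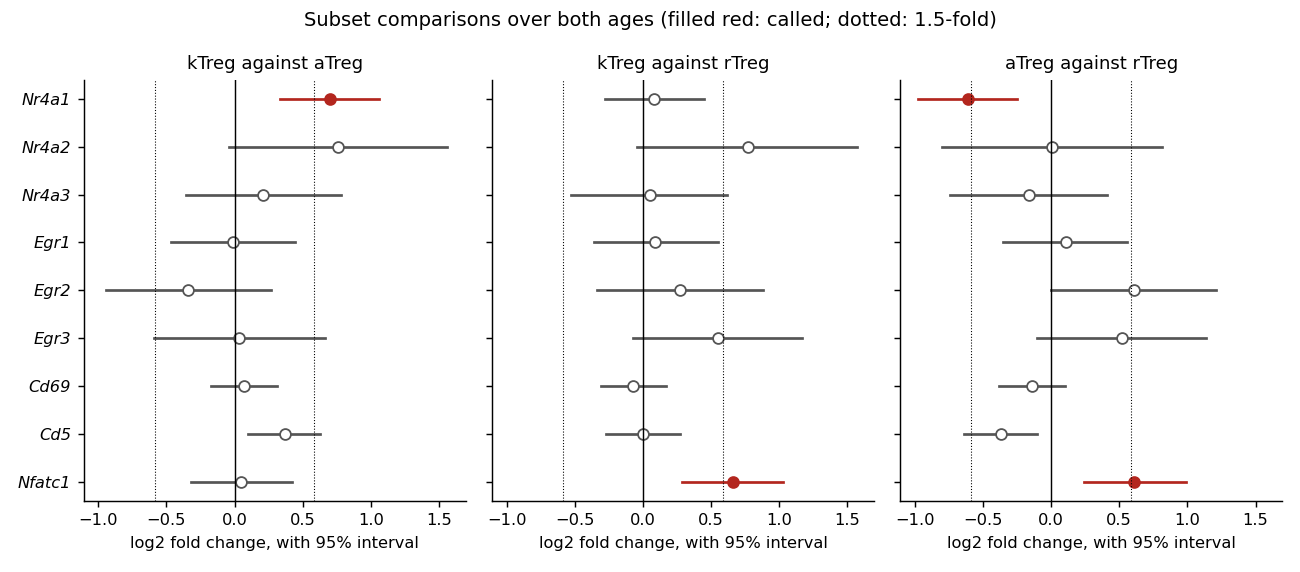
Log2 fold change with 95% interval for each member in the 3 subset comparisons over both ages (limma, 8 mice); filled red points are called and dotted lines mark 1.5-fold. Nr4a1 is called in kTreg against aTreg (0.70) and aTreg against rTreg (-0.61), and Nfatc1 in kTreg against rTreg (0.66) and aTreg against rTreg (0.61).

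The age comparison within aTreg cells gave the largest of the 3 age differences of Nr4a1. Old aTreg cells had 0.432 times the Nr4a1 of young aTreg cells (log2 -1.21, SE 0.25, limma adjusted p = 0.0068), and the 4 old and 4 young libraries did not overlap. Nr4a1 was 1 of 9 members called, all others short of the thresholds, in a comparison with 0.86% of genes called lower and 1.85% higher. Each of 36 alternative settings called it, with log2 differences between -1.32 and -1.11 and adjusted p up to 0.036. Macrophage and monocyte markers, at 226 to 324 in old and 52 to 2816 in young aTreg libraries, overlapped between these groups. B cell marker sums did not overlap, at 490 to 808 in old and 920 to 8381 in young aTreg libraries. Nor did CD8 T cell marker sums, at 171 to 268 in old and 339 to 1115 in young aTreg libraries. The plasma cell, neutrophil, dendritic cell, NK cell, erythroid and platelet marker sums overlapped. Cd44, a gene of the gate, did not overlap, at 4896 to 6441 in old and 2932 to 4356 in young aTreg libraries (log2 0.67, SE 0.18, limma adjusted p = 0.044). Foxp3 did not overlap either, at 5079 to 19813 in old and 20351 to 25465 in young aTreg libraries (log2 -0.83, SE 0.29, limma adjusted p = 0.17, not called). The part of these genes and markers in the result was not tested.

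In rTreg cells the old and young libraries overlapped in Nr4a1 (log2 0.13, interval -0.38 to 0.65), and so did those of kTreg cells (-0.42, interval -0.94 to 0.10, and between -0.69 without the old kTreg library of mouse 2 and -0.24 without that of mouse 4). Described by age, Nr4a1 differed between aTreg and rTreg cells by 0.06 in young and by -1.29 in old mice (SE 0.25 each). The test of that age difference itself gave -1.34 (SE 0.35), with a limma adjusted p = 0.056 that missed the threshold, and 1.56% of genes tested were called in it. With the mouse as a replicate block the same test gave an adjusted p = 0.041, and DESeq2 gave 0.011, in a range over the alternatives of 0.011 to 0.15. It was also called without the young rTreg library of mouse 2 (-1.44, adjusted p = 0.042), the old rTreg (-1.43, 0.049) or old aTreg (-1.46, 0.049) library of mouse 3, the young kTreg library of mouse 4 (-1.34, 0.017) or the old kTreg library of mouse 2 (-1.34, 0.029). The kTreg libraries are not part of this contrast and enter it only through the spread estimate shared by the groups. Old rTreg cells, at 10076 to 26208, had more macrophage and monocyte marker signal than old aTreg cells, at 226 to 324. Plasma cell, dendritic cell, CD8 T cell, erythroid and platelet marker sums were also higher in old rTreg cells without overlap. The part of these markers in the contrast was not tested.

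**Figure D3:**
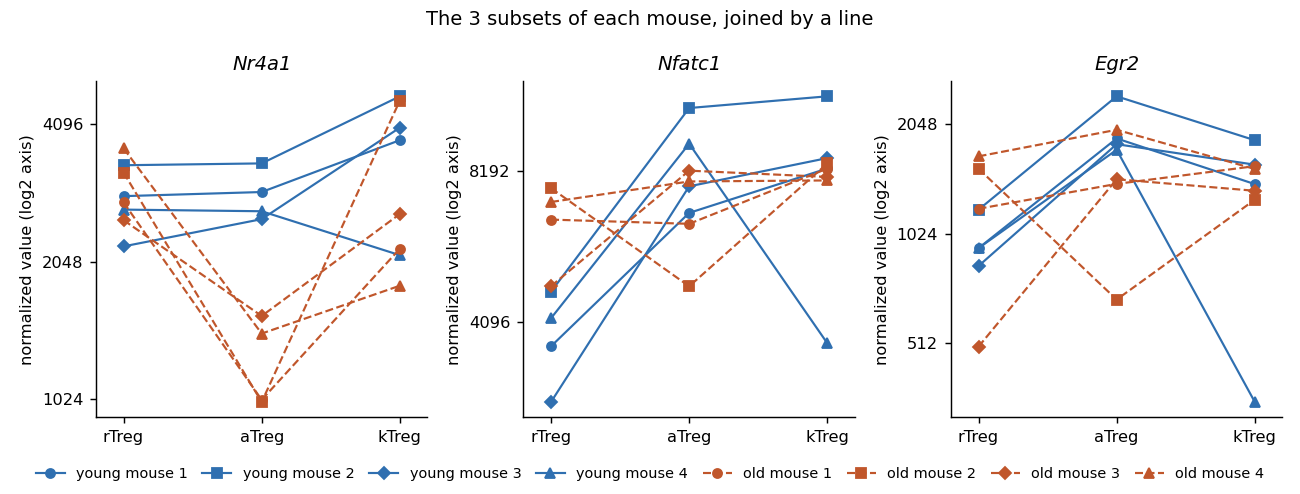
Normalized values (log2 axis) of Nr4a1, Nfatc1 and Egr2 in the 3 subsets of each mouse, joined by a line (blue solid, young; brown dashed, old). Nr4a1 dips in aTreg cells of all 4 old mice (1009 to 1557), while Nfatc1 and Egr2 climb from rTreg to aTreg cells in all 4 young mice.

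Nr4a2 (ENSMUSG00000026826, chr2:56996842-57014331, - strand), or Nurr1, and Nr4a3 (ENSMUSG00000028341, chr4:48045153-48086447, + strand), or Nor1, are the close relatives of Nr4a1 and bind the same DNA element. Neither was called in any of the 9 comparisons. Nr4a2 ranged from 147 to 183 in young and from 177 to 433 in old kTreg cells, and from 44.2 to 156 in young and 47.1 to 468 in old rTreg cells. It differed by 0.77 between kTreg and rTreg cells (interval -0.04 to 1.57, limma adjusted p = 0.17), with 7 of 8 mice higher in kTreg cells. Without the old rTreg library of mouse 2, the highest value of Nr4a2 in the series (468), that difference was called (1.02, adjusted p = 0.045, in a range over the alternatives of 0.045 to 0.34). In aTreg cells Nr4a2 ranged from 54 to 212 in young and from 95 to 232 in old mice. The group means ran from 288 ± 115 (SD, n = 4) in old kTreg through 219 ± 179 in old rTreg, 171 ± 16.5 in young kTreg, 153 ± 64 in old aTreg and 127 ± 70.2 in young aTreg to 107 ± 47.6 in young rTreg cells, and all neighbours overlapped.

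Nr4a3 stood between 92.3 and 162 in the 12 young libraries and between 41.6 and 158 in the old ones. Its aTreg libraries did not overlap between the ages, at 113 to 162 in young and 43.4 to 105 in old mice, but the difference missed the threshold (log2 -0.81, interval -1.62 to 0.00, limma adjusted p = 0.40). Old kTreg cells split into a pair of mice at 133 and 135 and a pair at 52.4 and 69.6. The group means ran from 131 ± 20.7 (SD, n = 4) in young kTreg through 126 ± 24.5 in young aTreg, 115 ± 16.2 in young rTreg, 107 ± 48.1 in old rTreg and 97.6 ± 42.9 in old kTreg to 74.6 ± 28.7 in old aTreg cells, again with all neighbours overlapping. The 3 NR4A genes, whose promoter windows held 4 CRE cores each, thus differed in the order of their group means, the lowest being in old aTreg for Nr4a1 and Nr4a3 and in young rTreg for Nr4a2.

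Egr1 (ENSMUSG00000038418, chr18:34992876-34998049, + strand) is the immediate early EGR factor and responds within minutes to MAP kinase signals. Its young values were tight in rTreg cells (2288 to 2554) and in aTreg cells (2903 to 3400), and these groups did not overlap. In young kTreg cells they were 2607, 3527, 2896 and 970, the last being the library that stood apart. Old rTreg cells split into 2074 and 2174 in mice 1 and 3 and 4271 and 3606 in mice 2 and 4. Old aTreg values ranged from 2266 to 3151, and old kTreg values were 2910, 6267, 3376 and 2580. Its group means ran from 3783 ± 1688 (SD, n = 4) in old kTreg through 3129 ± 210 in young aTreg, 3031 ± 1083 in old rTreg, 2632 ± 411 in old aTreg and 2500 ± 1090 in young kTreg to 2437 ± 121 in young rTreg cells, and all neighbours overlapped. Egr1 was called in none of the 9 comparisons by limma, edgeR or DESeq2, with an unadjusted limma p below 0.05 in 2. Its subset differences were -0.01 (interval -0.47 to 0.44) for kTreg against aTreg, 0.09 (-0.36 to 0.55) for kTreg against rTreg and 0.11 (-0.35 to 0.56) for aTreg against rTreg. Described by age, the kTreg to aTreg difference was -0.47 in young and 0.44 in old mice (SE 0.31 each). The test of that age difference gave 0.91 (interval 0.00 to 1.83, limma adjusted p = 0.53), and 0.51 without the young kTreg library of mouse 4. Old kTreg cells differed from young by 0.65 (interval 0.01 to 1.30, limma adjusted p = 0.32), a contrast that held both the lowest and the highest Egr1 library of the series.

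Egr2 (ENSMUSG00000037868, chr10:67371305-67378018, + strand) is linked with T cell anergy and with the control of effector cytokines. In young mice 1 to 4 its values were 934, 1192, 834 and 934 in rTreg cells. They were 1873, 2447, 1806 and 1743 in aTreg cells. In kTreg cells they were 1402, 1852, 1586 and 352. The young rTreg and aTreg groups did not overlap, and without the library of mouse 4 the kTreg values lay above all young rTreg values. In old mice 1 to 4 the rTreg values were 1199, 1546, 500 and 1672. The aTreg values were 1404, 674, 1446 and 1979. The kTreg values were 1571, 1270, 1344 and 1543, the narrowest Egr2 group, and all 3 old groups overlapped. The group means ran from 1967 ± 324 (SD, n = 4) in young aTreg through 1432 ± 148 in old kTreg, 1376 ± 536 in old aTreg, 1298 ± 657 in young kTreg and 1229 ± 526 in old rTreg to 974 ± 153 in young rTreg cells, of which young aTreg alone did not overlap its neighbour. The aTreg to rTreg difference was 0.61 (SE 0.29, limma adjusted p = 0.23), higher in 7 of 8 mice and not called. It was called when both the young kTreg library of mouse 4 and the old aTreg library of mouse 2 were left out (0.76, adjusted p = 0.0071), a setting chosen after the data were seen, and with array weights (0.61, 0.0097), in a range over the alternatives of 0.0071 to 0.44. By age the difference was 1.01 in young and 0.20 in old mice (SE 0.41 each), and the test of that difference gave -0.81 (interval -2.03 to 0.40, adjusted p = 0.53).

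Egr3 (ENSMUSG00000033730, chr14:70314350-70320063, + strand), which acts with Egr2 and is induced through NFAT, had the lowest value per kilobase of the EGR genes (25.4). Its values in rTreg cells were 88.4, 178, 157 and 77.3 in young mice and 46.1, 81.2, 42.3 and 35.1 in old mice. Only old mouse 2 reached into the young range. The difference was -1.26 (log2, SE 0.42, interval -2.14 to -0.38), with a limma adjusted p = 0.074 that missed the threshold, while DESeq2 gave 0.024. It passed without the old rTreg (-1.50, adjusted p = 0.047) or old aTreg (-1.26, 0.041) library of mouse 2 or the young kTreg library of mouse 4 (-1.26, 0.037), in a range over the alternatives of 0.015 to 0.22. Those aTreg and kTreg libraries enter this difference only through the spread estimate shared by the groups. Old aTreg cells ranged from 33.1 to 121 against 117 to 214 in young mice (-0.89, adjusted p = 0.38, and -0.48 without the old aTreg library of mouse 2), and old kTreg cells from 70.9 to 101 against 81.1 to 256 (-0.83, adjusted p = 0.35). The mean of Egr3 was thus lower in the old than in the young group of each subset, without a call in any. The group means ran from 161 ± 72.1 (SD, n = 4) in young kTreg through 153 ± 45.5 in young aTreg, 125 ± 49.9 in young rTreg, 88.4 ± 38.8 in old aTreg and 84.1 ± 14.4 in old kTreg to 51.2 ± 20.5 in old rTreg cells, with overlap between all neighbours. Between subsets Egr3 differed by 0.55 for kTreg against rTreg (interval -0.07 to 1.17) and 0.52 for aTreg against rTreg (-0.10 to 1.14, limma adjusted p = 0.34). The latter was called (0.72, adjusted p = 0.05 after rounding) when both the young kTreg library of mouse 4 and the old aTreg library of mouse 2 were left out, in a range over the alternatives of 0.05 to 0.53.

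Cd69 (ENSMUSG00000030156, chr6:129244288-129252399, - strand) was abundant in every subset and had the narrowest intervals of the 9 members. Its group means were 5808 ± 1113 (SD, n = 4) in young rTreg, 5209 ± 394 in old rTreg, 4610 ± 1262 in young aTreg, 5506 ± 551 in old aTreg, 4685 ± 818 in young kTreg and 5885 ± 757 in old kTreg cells. All neighbours in the order of these means overlapped. The subset differences were 0.07 (interval -0.17 to 0.31), -0.07 (-0.31 to 0.17) and -0.14 (-0.38 to 0.10) for kTreg against aTreg, kTreg against rTreg and aTreg against rTreg, each interval within 1.5-fold (0.58) in both directions. Old aTreg and old kTreg cells differed from young by 0.29 (-0.05 to 0.63) and 0.33 (-0.01 to 0.68), and neither was called.

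Cd5 (ENSMUSG00000024669, chr19:10694480-10716366, - strand) differed little, but in the same direction in every mouse, between aTreg cells and the other subsets. In young mice 1 to 4 its values were 12280, 10724, 13030 and 13502 in rTreg cells. They were 10569, 10034, 11722 and 12908 in aTreg cells. In kTreg cells they were 12272, 11829, 13625 and 14929. In old mice 1 to 4 the rTreg values were 12116, 11310, 12289 and 12094. The aTreg values were 9456, 4216, 10222 and 9400, and the kTreg values were 10669, 10928, 12400 and 10966. In all 8 mice aTreg cells had less Cd5 than both rTreg and kTreg cells. The group means ran from 13164 ± 1403 (SD, n = 4) in young kTreg through 12384 ± 1216 in young rTreg, 11952 ± 437 in old rTreg, 11308 ± 1278 in young aTreg and 11241 ± 784 in old kTreg to 8323 ± 2764 in old aTreg cells, of which old aTreg alone did not overlap its neighbour. The differences were 0.37 for kTreg against aTreg (interval 0.10 to 0.63, limma adjusted p = 0.068) and -0.37 for aTreg against rTreg (-0.64 to -0.10, adjusted p = 0.076). Both missed the adjusted threshold and were under 1.5-fold. The old aTreg library of mouse 2, with the lowest Cd5 of the series (4216), also had the lowest Foxp3. Without it the differences were smaller, 0.22 (limma adjusted p = 0.048) and -0.22 (0.044), and without the old aTreg library of mouse 3 they were 0.43 (0.032) and -0.43 (0.039), all under 1.5-fold. Old aTreg cells differed from young by -0.52 (-0.90 to -0.14, adjusted p = 0.16), and by -0.22 (adjusted p = 0.52) without the library of mouse 2.

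Nfatc1 (ENSMUSG00000033016, chr18:80649266-80756295, - strand) encodes an NFAT factor whose own gene is switched on by NFAT, so that its transcript rises in stimulated T cells. In young mice 1 to 4 its values were 3657, 4699, 2832 and 4160 in rTreg cells. They were 6746, 10916, 7621 and 9267 in aTreg cells. In kTreg cells they were 8271, 11519, 8676 and 3708. Young rTreg cells lay below all young aTreg libraries and below 3 of 4 young kTreg libraries. In old mice 1 to 4 the rTreg values were 6541, 7558, 4819 and 7092. The aTreg values were 6416, 4816, 8189 and 7793. The kTreg values were 8267, 8463, 7957 and 7829, so that old kTreg lay above old rTreg cells without overlap and old rTreg and aTreg cells overlapped. Group means ran from 8638 ± 1844 (SD, n = 4) in young aTreg, 8129 ± 289 in old kTreg, 8043 ± 3231 in young kTreg, 6804 ± 1527 in old aTreg and 6502 ± 1197 in old rTreg to 3837 ± 794 in young rTreg cells, of which young rTreg alone was separated from its neighbour.

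Over both ages Nfatc1 was 1.58-fold higher in kTreg than in rTreg cells (log2 0.66, SE 0.18, limma adjusted p = 0.0095), in 7 of 8 mice, and was the 1 member called there. Without the young kTreg library of mouse 2 the difference was 0.56 (adjusted p = 0.024), under 1.5-fold, in a range over the alternatives of 2.6e-05 to 0.026. Described by age, it was 0.98 in young and 0.34 in old mice (SE 0.25 each). The test of that age difference gave -0.64 (SE 0.36, limma adjusted p = 0.37). Macrophage and monocyte marker sums were 1912 to 2805 in old kTreg and 10076 to 26208 in old rTreg libraries. Plasma cell, NK cell and erythroid marker sums were also higher in old rTreg libraries without overlap. The part of these markers was not tested. Nfatc1 was 1.53-fold higher in aTreg than in rTreg cells (0.61, SE 0.18, limma adjusted p = 0.029), in 6 of 8 mice. This call was lost without the young rTreg library of mouse 1 (0.61, adjusted p = 0.05) or mouse 3 (0.54, 0.07), the old rTreg library of mouse 3 (0.54, 0.065), the young aTreg library of mouse 2 (0.55, 0.067) or mouse 4 (0.59, 0.056), or the old aTreg library of mouse 3 (0.56, 0.067) or mouse 4 (0.58, 0.064), in a range over the alternatives of 4.4e-04 to 0.07. Between kTreg and aTreg cells Nfatc1 differed by 0.05 (interval -0.32 to 0.42).

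By age, the aTreg to rTreg difference of Nfatc1 was 1.17 in young and 0.06 in old mice (SE 0.25 each). The test of that difference gave -1.11 (SE 0.36, limma adjusted p = 0.12) and was not called. The young kTreg library of mouse 4 is not part of this contrast, but it enters the spread estimate shared by the 6 groups. Without that library, the adjusted p was 0.02 for this contrast (still -1.11) and 0.042 for the kTreg to rTreg contrast (-0.97, against -0.64 with it). The ranges over the alternatives were 0.02 to 0.37 and 0.014 to 0.57. Old rTreg libraries all lay above young ones (0.77, SE 0.25, limma adjusted p = 0.07), a difference called without the old rTreg library of mouse 3 (0.90, adjusted p = 0.04) or the young kTreg library of mouse 4 (0.77, 0.0083), and by DESeq2 (0.028), in a range over the alternatives of 0.0044 to 0.24. That kTreg library enters this difference only through the shared spread estimate. Macrophage and monocyte markers were also higher in these old rTreg libraries (10076 to 26208) than in the young ones (565 to 8060). So were plasma cell (8579 to 14250, against 4362 to 5739), NK cell (715 to 1585, against 225 to 446) and platelet markers (451 to 981, against 42.2 to 73.8). CD8 T cell markers were lower in the old ones (295 to 554, against 566 to 2185), and the other lists overlapped. The part of these markers was not tested.

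**Figure D4:**
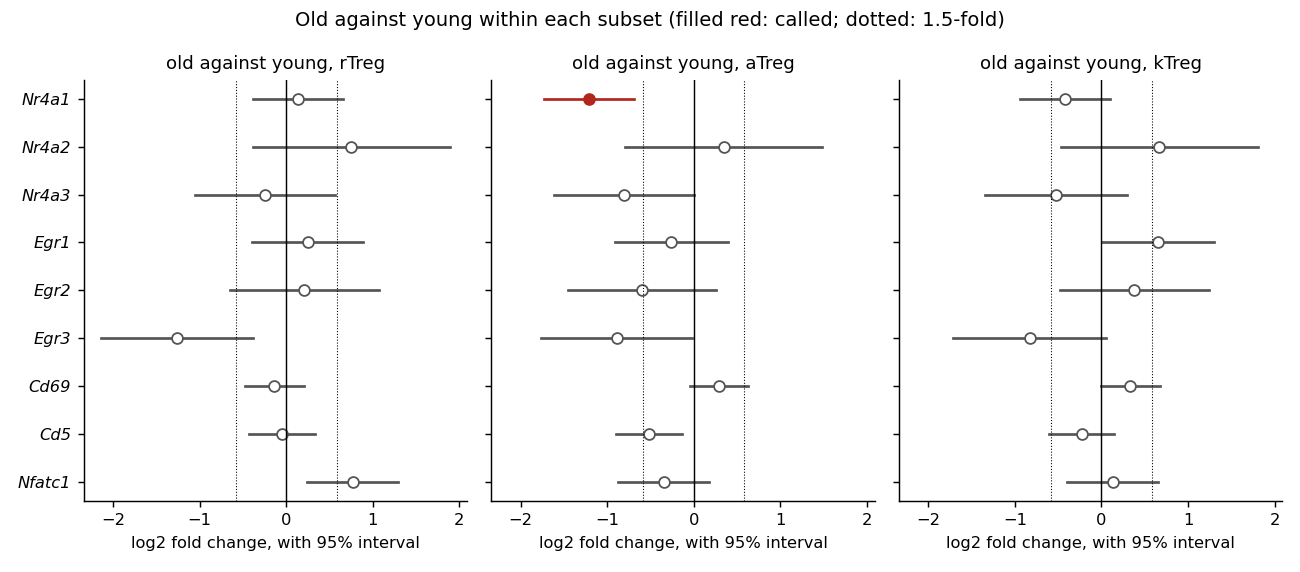
Log2 fold change with 95% interval, old against young, for each member within each subset (limma, 4 old and 4 young mice); filled red points are called and dotted lines mark 1.5-fold. The 1 call is Nr4a1 in aTreg cells (-1.21), and Egr3 is at -1.26, -0.89 and -0.83 in rTreg, aTreg and kTreg cells.

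Counted over the 9 members, the age and interaction comparisons gave few calls. None was called between old and young rTreg cells by limma, where 5.83% of genes tested were called in either direction, 2 members had an unadjusted p below 0.05 (as had 22% of all genes, so that this count was near the background), edgeR called 0 and DESeq2 called 2 (Egr3 and Nfatc1). None was called between old and young kTreg cells, where 1.26% of genes were called, 1 member had an unadjusted p below 0.05 (15.5% of all genes), and edgeR and DESeq2 called 0. The age difference of kTreg against aTreg gave 0 members by limma, edgeR and DESeq2 (0.156% of genes called by limma, 2 members and 9.4% of all genes at an unadjusted p below 0.05). That of kTreg against rTreg gave 0 by all 3 tools as well (3.02% of genes called, 0 members and 17.2% of all genes at an unadjusted p below 0.05). That of aTreg against rTreg gave 0 by limma and edgeR and 2 by DESeq2 (Nr4a1 and Nfatc1), with 2 members and 15.8% of all genes at an unadjusted p below 0.05. The median log2 difference of the 9 members was -0.52 between old and young aTreg cells, beside 0.01 for all genes, and between 0.01 and 0.09 in the 3 subset comparisons. The aTreg median was the value of Cd5 and leaned on a single library. Without the old aTreg library of mouse 2, Cd5 differed there by -0.22, Egr2 by -0.29, Egr3 by -0.48 and Nfatc1 by -0.19. Nr4a2 differed by 0.54 in that setting, and Nr4a1 was still called.

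Within groups, single libraries lay away from the group median in several members. The young kTreg library of mouse 4 lay under its group median in Nr4a1 (log2 -0.88), Egr1 (-1.5), Egr2 (-2.08) and Nfatc1 (-1.19), while its Egr3 (0.74) and Cd5 (0.21) lay above. All genes of that library had a spread of 2.26 (log2, SD) about the group median, larger than each of these deviations. They are thus not particular to the members. The old kTreg library of mouse 2 lay above in Nr4a1 (0.95) and Nr4a2 (0.70) and under in Egr2 (-0.18). Deviations from the group medians correlated across the 24 libraries at r = 0.85 for Nr4a1 and Egr1 and r = 0.88 for Egr2 and Nfatc1. Without the young kTreg library of mouse 4, over 23 libraries, these were 0.79 and 0.77, and the correlation of Egr1 and Egr2 fell from 0.69 to 0.37. These are descriptions over libraries that share mice, and each value carries its library's size factor.

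**Figure D5:**
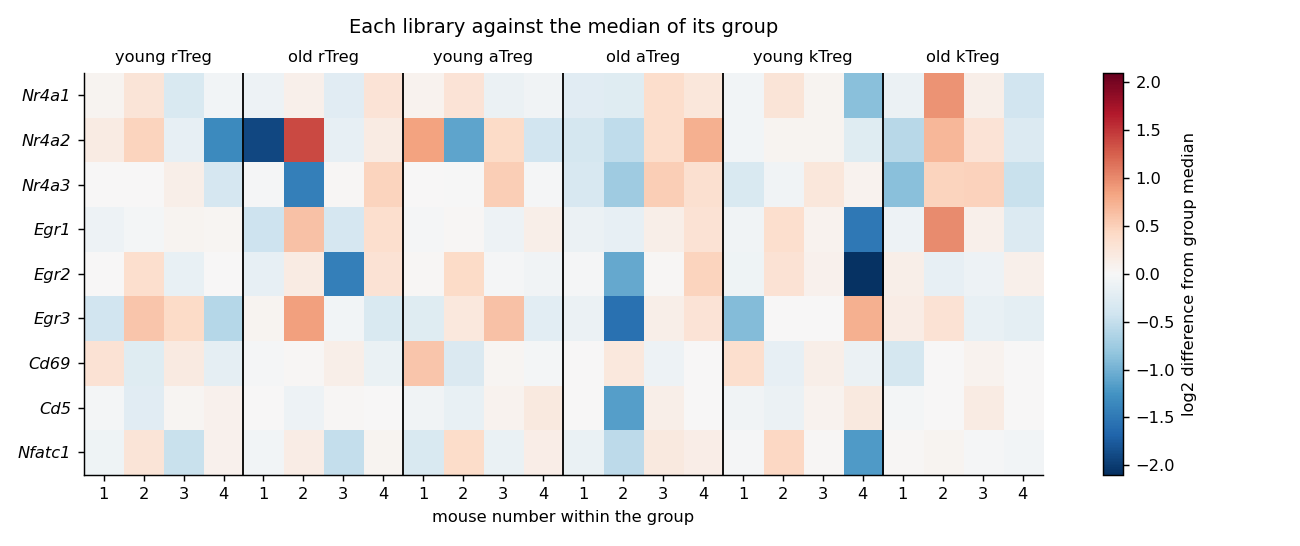
Log2 difference of each library from the median of its group (colour) for each member (rows), with libraries in columns by group and mouse number. The young kTreg library of mouse 4 is low in Nr4a1, Egr1, Egr2 and Nfatc1, and the old kTreg library of mouse 2 is high in Nr4a1 and Egr1.

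Of 32 other tested genes that TCR signals induce, 12 were higher and 3 lower in kTreg than in aTreg cells, 17 higher and 3 lower in kTreg than in rTreg cells, and 11 higher and 1 lower in aTreg than in rTreg cells. Over all genes tested the shares called were 4.13% higher and 3.26% lower, 9.37% and 6.09%, and 5.23% and 2.78% in these comparisons, and the same shares apply to the lists that follow. The median log2 difference of the list was 0.47, 0.69 and 0.22, beside -0.08, -0.01 and 0.06 for all genes. This list and those that follow were chosen with earlier results of these data known, so their counts and medians are descriptions. In kTreg against aTreg cells the inhibitory receptor Ctla4 (1.02, SE 0.14), the costimulatory receptors Tnfrsf4 (0.95, SE 0.14) and Tnfrsf18 (0.81, SE 0.12) and the repressor Zbtb32 (1.48, SE 0.22) rose, and the receptor Cd160 (-2.07, SE 0.26), the transcription factor gene Myc (-0.95, SE 0.15) and Cd200 (-0.64, SE 0.15) fell, with limma adjusted p up to 0.0078. In kTreg against rTreg cells Icos (1.69), Cd83 (1.71), the chemokine receptor Ccr8 (2.45) and Pdcd1, which encodes PD-1 (1.78), had the smallest p of those that rose. Icos (1.14), Cd83 (1.05), Ccr8 (1.60) and Tigit (1.89) had the smallest p in aTreg against rTreg cells. In old against young aTreg cells 5 of the 32 fell and 1 rose, where 0.86% of all genes tested were called lower and 1.85% higher. Those that fell, named after their values were seen, were the IL-2 receptor gene Il2ra (-1.18), Ctla4, Cd200, Hivep3 and Cd83 (-0.76), and Bhlhe40 rose (1.77). The number that fell was 3 with edgeR, 9 with DESeq2 and 2 without old mouse 2, and in kTreg against aTreg cells 9 rose without that mouse. In old against young rTreg cells 6 of the 32 rose and 1 fell, where 5.83% of genes tested were called in either direction. For kTreg cells 1 rose and 1 fell, where 1.26% were called. Il2ra also fell in old against young rTreg cells (-0.93), and Bhlhe40 also rose in rTreg (1.63) and kTreg cells (1.88).

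Of 25 tested genes of NFAT, calcineurin and calcium entry, 0 were called between kTreg and aTreg cells by limma, edgeR or DESeq2 (5 at an unadjusted limma p below 0.05), 2 were higher and 2 lower in kTreg than in rTreg cells, and 1 was lower in aTreg than in rTreg cells. These counts were near the shares of all genes. Nfatc2, the NFAT factor already present in resting T cells, rose in kTreg against rTreg cells (0.67, SE 0.20, limma adjusted p = 0.017), as did the calcium channel gene Orai3 (0.74), while the calcineurin regulator Rcan3 (-1.07) and Homer3 (-1.84) fell. Nfatc3 differed by 0.40 there (SE 0.16, adjusted p = 0.076). Of 23 factors upstream of the EGR and NR4A genes, Crem, a member of the CREB family, and the kinase gene Rps6ka1 rose in kTreg against aTreg cells (0.86, SE 0.14, and 0.99, SE 0.10) and against rTreg cells (1.33 and 0.63), and Elk4 fell against rTreg cells (-0.59). Srf, serum response factor, differed by 0.06 between kTreg and aTreg cells (SE 0.12, adjusted p = 0.82) and rose in old against young rTreg cells (0.68, SE 0.18, adjusted p = 0.022).

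Of 19 EGR partners and anergy genes, 3 were higher and 2 lower in kTreg than in aTreg cells. Those that rose included Ndrg1 (1.49, SE 0.17) and Zfp36 (1.02, SE 0.23), and Nrgn (-1.52, SE 0.42) and the cytokine signal inhibitor Socs3 (-0.59, SE 0.16) fell. Against rTreg cells 2 were higher and 4 lower in kTreg cells, and 1 was higher and 2 lower in aTreg cells. Nab2, a co-repressor that EGR factors both induce and bind, ranged from 1640 to 2158 in young and from 477 to 1166 in old aTreg cells (log2 -1.20, SE 0.20, limma adjusted p = 0.0012), while its relative Nab1 rose there (0.69, SE 0.17, adjusted p = 0.023). Of 20 partners of CD5 and CD69, S1pr1, the exit receptor that CD69 holds down, fell in aTreg (-1.33) and kTreg (-0.91) against rTreg cells, as did its activator Klf2 (-1.40 and -1.09) and Slc7a5, a transporter gene whose product CD69 binds (-0.70 and -0.78). Dok1 rose in kTreg against rTreg cells (0.91) and Lgals1 in kTreg against aTreg cells (0.92).

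Immediate early and heat shock genes known to respond to cell isolation were counted because NR4A and EGR genes respond to the same handling. Of 26 tested, 2 were higher (Nfkbiz and Zfp36) and 1 lower (Hspe1) in kTreg than in aTreg cells, and 5 were higher and 1 lower in kTreg than in rTreg cells, among them Dusp1 (1.80, SE 0.37) and Hspa1a (2.36, SE 0.63). Between aTreg and rTreg cells 0 were called by limma and edgeR, DESeq2 called 2 higher and 1 lower, and there were 7 at an unadjusted limma p below 0.05. In old against young aTreg cells 2 rose, the heat shock genes Hspa1a (4.69, SE 0.89) and Hspa1b (3.78, SE 0.82). There 1.85% of all genes tested were called higher, and without old mouse 2 the number that rose was 1. In old against young rTreg cells 2 also rose, Hspa1a (3.60, SE 0.89) and Ier3 (4.52, SE 0.96). Of all genes tested, 5.83% were called in either direction in that comparison, and without old mouse 2 the number that rose was 1. For old against young kTreg cells limma and edgeR called 0 and DESeq2 called 3 higher. The part of handling in the results was not tested.

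The genes whose pattern over the 24 libraries was most like a member's, among 10539 genes with a mean value of at least 100, were Swap70 (Pearson r = 0.86) and the MAP kinase phosphatase gene Dusp4 (0.84) for Nr4a1. For Nr4a2 they were Rrbp1 (0.70) and Rgs16 (0.69), and for Nr4a3 Sesn1 (0.75) and Nab2 (0.68). Egr1 was closest to Brd1 (0.87) and Supt6 (0.85), Egr2 to Cnnm3 (0.88) and Arhgap5 (0.86), and Egr3 to Ubp1 (0.75) and Map2k6 (0.73). Cd69 was closest to Eipr1 (0.85) and H3f3b (0.82), Cd5 to Ppm1j (0.89) and Cd27 (0.85), and Nfatc1 to Axl (0.91) and Jak2 (0.89). The libraries share mice and size factors, and these values are descriptions. They include the young kTreg library of mouse 4, which stood apart, and were not computed without it.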

How the data were processed

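The authors sorted the cells by FACS, made cDNA with SMART-Seq v4, sequenced pairs of 150 bases, aligned reads with HISAT2 2.2.1 to GRCm39, counted them with HTSeq 1.99.2 and used DESeq2 1.44.0. The annotation release and strand setting are not given in the sources used here. The deposited values are a normalized signal, whole reads divided by a size factor per library, for genes with at least 100 reads in sum. All values were whole reads within 0.001 reads once the value of 1 read was found. Errors are the spread over the 4 libraries of a group, and no interval for counting is given.

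Gene names came from GENCODE M39, which held 17353 of 17464 identifiers. limma 3.58.1 with a mean-variance trend was run on log2(value + 1) over 16630 genes in a model of 6 groups, with equal weight for both ages in subset comparisons. The groups shared an estimate of the spread per gene, so leaving out a library could move the p of contrasts it is not part of. edgeR 4.0.16 and DESeq2 1.42.0 on recovered reads were among 36 alternatives. Scripts were tested on simulated data. Sample numbers were taken as mice, since 3 subsets came from each of 8 mice: libraries of the same mouse had median correlations of deviations of 0.15 (rTreg and aTreg), 0.091 (rTreg and kTreg) and 0.12 (aTreg and kTreg), against -0.026, -0.039 and -0.038 for other mice. The members and lists were chosen with earlier results of these data known. Named were the 9 members, up to 4 genes per list and direction by smallest p, 2 genes most like each member, and Nfatc2, Nfatc3, Nab1, Nab2, Srf, Cd44 and Klrg1; some genes under this rule are not reported here. Protein sequences were not used here.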

Additional observations from a re-analysis of the deposited data

Results flagged for a closer look

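A library stood far from the other 3 of its group, by Dixon's test at the 95% level, in 2 of 54 sets of 4 libraries (9 members in 6 groups), and chance flags about 1 in 20. Nr4a3 in young aTreg cells was 162 in mouse 3 and 113 to 115 in the others, a gap of 0.957 of the group's range. Cd5 in old aTreg cells was 4216 in mouse 2 and 9400 to 10222 in the others, a gap of 0.863 of the range. The same library had the lowest Foxp3 of the series, 5079, and the lowest Egr2 and Egr3 of its group, 674 and 33.1.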

How the results depend on the processing

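Nr4a1 in old against young aTreg cells was called under all 36 alternatives, Nr4a1 in kTreg against aTreg in 34, Nfatc1 in kTreg against rTreg in 35, and Nr4a1 and Nfatc1 in aTreg against rTreg in 29 each. Of 2916 gene values under an alternative, 2768 kept their direction and their side of the thresholds, 17 lost a call, 35 gained 1 and 96 changed sign, and the cause was not tested. Members called moved from 1 to 0 for kTreg against aTreg and from 2 to 1 for aTreg against rTreg without old mouse 2, and the latter to 3 with array weights (Egr2 added) or without the 2 libraries that stand apart (Nr4a1 lost, Egr2 and Egr3 added). For old against young rTreg they moved from 0 to 1 with array weights or without old mouse 2, and to 2 with DESeq2 or without the 2 libraries that stand apart (chosen after the data were seen, as was leaving out old mouse 2). For old against young kTreg and for the age difference of kTreg against rTreg they moved from 0 to 1 with array weights, and in the latter also without the 2 libraries. For the age difference of aTreg against rTreg they were 1 with a pseudocount of 5, a filter at 50, the replicate block or only the groups compared, and 2 with array weights, DESeq2 or without the 2 libraries. The replicate block changed no other call. Leaving out single libraries gave 0 to 1 for kTreg against aTreg, 0 to 2 for kTreg against rTreg, 1 to 2 for aTreg against rTreg, 0 to 2 for old against young rTreg, and 0 to 1 and 0 to 2 for the age differences of kTreg and aTreg against rTreg.

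The differences that changed sign were not called in the fit reported. With array weights, Egr1 was 0.13 and Egr3 -0.37 for kTreg against aTreg, Nr4a3 0.06 for aTreg against rTreg, Egr2 -0.10 and Nfatc1 -0.16 for old against young kTreg, Nfatc1 -0.01 for the age difference of kTreg against aTreg, and Nr4a3 0.02, Egr1 -0.12 and Egr2 -0.57 for that of kTreg against rTreg. With edgeR, Egr1 was 0.09 and Egr3 -0.01 for kTreg against aTreg, Nr4a2 -0.13 for aTreg against rTreg, Nfatc1 -0.01 for old against young kTreg, and Egr3 -0.15 and Egr2 -0.19 for the age differences of kTreg against aTreg and rTreg. With DESeq2, Egr1 was 0.10, Nr4a2 -0.14, Egr3 -0.14 and Egr2 -0.19 in these contrasts. With a pseudocount of 5, Nr4a2 was -0.00 for aTreg against rTreg. Without the 2 libraries, Egr1 was 0.16 and Egr3 -0.30 for kTreg against aTreg, Egr2 -0.17 and Nfatc1 -0.21 for old against young kTreg, Egr3 -0.09 and Nfatc1 -0.01 for the age difference of kTreg against aTreg, and Egr2 -0.38 for that of kTreg against rTreg. Without old mouse 2, Egr3 was -0.22 and Nfatc1 -0.04 for kTreg against aTreg, Nr4a1 -0.04 and Nr4a3 -0.24 for kTreg against rTreg, Nr4a3 0.15 for old against young rTreg, Nr4a2 -0.09, Nr4a3 -0.13 and Egr3 -0.44 for the age difference of kTreg against aTreg, and Nr4a2 0.20 and 0.29 for those of kTreg and aTreg against rTreg.

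Leaving out single libraries gave ranges of -0.15 to 0.19 (Egr1), -0.17 to 0.18 (Egr3) and -0.06 to 0.22 (Nfatc1) for kTreg against aTreg; -0.05 to 0.21 (Nr4a1), -0.15 to 0.18 (Nr4a3), -0.04 to 0.30 (Egr1) and -0.04 to 0.02 (Cd5) for kTreg against rTreg; and -0.29 to 0.26 (Nr4a2) for aTreg against rTreg. They were -0.48 to 0.15 (Nr4a3) for old against young rTreg, and -0.17 to 0.63 (Egr2) and -0.21 to 0.34 (Nfatc1) for old against young kTreg. For the age differences they were -0.35 to 0.32 (Egr3), -0.12 to 0.17 (Cd69) and -0.01 to 0.42 (Cd5) for kTreg against aTreg, -0.67 to 0.42 (Nr4a2) and -0.38 to 0.42 (Egr2) for kTreg against rTreg, and -1.0 to 0.10 (Nr4a2) for aTreg against rTreg.

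Of all genes tested, calls for kTreg against aTreg numbered 1229, and 2322 with array weights. Over the alternatives they ranged from 478 to 1830 for old against young rTreg (970 in the fit reported), 244 to 1288 for aTreg (451) and 57 to 849 for kTreg (209), and from 3 to 309 (26), 276 to 1162 (503) and 80 to 623 (259) for the age differences of kTreg against aTreg, kTreg against rTreg and aTreg against rTreg. At 4 mice per group the members with the largest standard errors, Nr4a2, Nr4a3, Egr2 and Egr3, could show only large differences.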
